A study of Mus musculus with 29 samples.

Results

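Aminoacyl-tRNA synthetases are the enzymes that join each amino acid to its transfer RNA before the ribosome uses it. The 36 genes described here are the nuclear genes of this family in mouse, taken by symbol: 20 that encode the cytosolic enzymes (Aars to Yars) and 16 that encode the mitochondrial enzymes, whose symbols end in the number 2. All 36 were found among the 31053 gene identifiers in the liver data, and 34 passed the filter on low counts. The 2 that did not, Mars2 and Pars2, were mitochondrial members with mean levels of 1.61 and 1.73 CPM (counts scaled to a common library total) over all animals, so statements on tested genes cover 20 cytosolic and 14 mitochondrial members. Livers came from 29 male C57BL/6 mice, and the RNA was counted by 3′ mRNA sequencing (QuantSeq), in which a read marks the 3′ end of a transcript. The 6 groups were wild-type mice, PiZ mice and PiZ/Chop-/- mice, each at 6 and at 36 weeks of age. Every group had 5 animals except wild type at 36 weeks, which had 4. In PiZ mice a transgene supplies the human Z variant of alpha-1-antitrypsin, a secreted protease inhibitor that in this form misfolds and collects in the endoplasmic reticulum of liver cells. PiZ/Chop-/- mice have it too, but are without Chop, the stress-induced transcription factor encoded by Ddit3. Thus PiZ and PiZ/Chop-/- animals share the transgene, and no group had the Chop deletion without it. The promoter of the transgene, its copy number and the construction of the Chop allele were not given in the sources used here.

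Each cytosolic enzyme charges transfer RNA for cytosolic ribosomes, and several of them sit together with scaffold proteins in the multi-synthetase complex. The mitochondrial enzymes are made in the cytosol, imported, and charge transfer RNA for the few proteins that mitochondria translate themselves. The Gars and Kars genes serve both compartments, and no separate mitochondrial gene exists for glycine or lysine. When unfolded protein or a lack of amino acids leads to phosphorylation of the initiation factor eIF2, the transcription factor ATF4 is translated more, and it is known to bind C/EBP-ATF response elements near genes for amino acid synthesis, amino acid transport and many cytosolic synthetases. Chop is itself induced by ATF4 and can act with it at such elements. The comparisons below ask how the synthetase genes of each compartment stood in PiZ livers, with and without Chop, at the younger and the older age.

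The start regions of the members were read from RefSeq (GRCm38.p6), of which entries for 26 of the 36 members were used: 12 cytosolic and 14 mitochondrial. In windows from 250 bases before the start to 50 after it, the letters TGATGNAA, a form of the C/EBP-ATF response element, were searched on both strands. Of the 12 cytosolic members 4 held a match: Gars, Iars, Tars and Yars. Eprs and Sars, which were called higher in PiZ at 6 weeks, had a window without a match. Among the 14 mitochondrial members 0 held one. Of all 27025 RefSeq genes 4.51% held it in any window, and of all 32851 windows 3.97% did. The stricter TGATGCAA, every match of which is also a match of TGATGNAA, was found in Iars, Tars and Yars (3 of 12). It was found in 0 of 14 mitochondrial members, in 1.03% of all RefSeq genes and in 0.895% of all windows. A match is a description of letters and not a measured binding site. Cars, Hars, Lars, Nars, Rars, Vars, Wars, Hars2 and Pars2 had no entry used here. Stretches before the start are shown for Gars and Tars, cytosolic members that held a match there and whose level was called different in PiZ at 6 weeks, and for Aars2, a mitochondrial member where no match was found. Capitals mark the match, which reads as the reverse complement of the motif in both, and bases that GENCODE M21 counts as untranslated exon were left out.
Gars (chr6:55037751-55038000, plus strand): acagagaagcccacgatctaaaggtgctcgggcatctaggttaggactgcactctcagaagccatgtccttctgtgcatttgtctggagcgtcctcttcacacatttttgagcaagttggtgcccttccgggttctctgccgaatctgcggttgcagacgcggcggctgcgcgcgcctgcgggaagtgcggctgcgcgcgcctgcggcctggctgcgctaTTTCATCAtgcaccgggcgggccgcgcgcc
Tars (chr15:11399666-11399908, minus strand): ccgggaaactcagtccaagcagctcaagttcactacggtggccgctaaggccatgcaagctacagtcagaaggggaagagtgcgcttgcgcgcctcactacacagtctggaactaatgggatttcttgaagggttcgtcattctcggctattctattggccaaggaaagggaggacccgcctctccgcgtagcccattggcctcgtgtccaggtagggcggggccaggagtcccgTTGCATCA
Aars2 (chr17:45506582-45506831, plus strand): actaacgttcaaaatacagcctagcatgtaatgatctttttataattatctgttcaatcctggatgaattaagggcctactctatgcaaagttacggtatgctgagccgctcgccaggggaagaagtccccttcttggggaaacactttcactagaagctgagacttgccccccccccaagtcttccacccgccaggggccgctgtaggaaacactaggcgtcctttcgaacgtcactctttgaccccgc
The match began 30 bases before the RefSeq start in Gars and 15 before it in Tars. In Iars and Yars the match lay after the start, from base 8 and base 4.

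The libraries held 2310208 to 3851983 reads assigned to genes, so that 3 counts corresponded to 0.779 to 1.30 CPM. Ddit3, the gene deleted in PiZ/Chop-/- mice, lay between 0 and 10.7 CPM in the 10 PiZ/Chop-/- animals and between 6.62 and 104 CPM in the 19 others. All PiZ animals, at 33.6 CPM or more, were above all PiZ/Chop-/- animals. Wild type was not fully separate. PiZ/Chop-/- replicate 1 at 6 weeks (10.7 CPM) lay above wild-type replicates 2 (6.62 CPM) and 5 (7.68 CPM) of that age. PiZ/Chop-/- replicate 2 at 36 weeks (6.69 CPM) also lay above the former. Hepatocyte markers were abundant in every group, with mean summed levels from 46804 CPM in PiZ at 6 weeks to 65815 CPM in wild type at 36 weeks. Several libraries stood apart from their groups. Reads outside genes made up 43.9% of the unique alignments of wild-type replicate 2 at 6 weeks, and replicates 1 and 2 of that group had the highest skeletal muscle transcripts (mean log2 CPM of 14 muscle genes 7.94 and 8.02). PiZ/Chop-/- replicate 1 at 6 weeks differed from the other 4 in its clock genes: the log2 of Dbp over Arntl was -2.08 there and 5.70 to 7.38 in the others. At that age it was -2.84 to 1.39 in wild type and -1.78 to 3.06 in PiZ. The other 4 thus lay above every wild-type and PiZ animal at 6 weeks, and replicate 1 lay within the wild-type range. The labels named no batch and no time of day. In bulk liver, fewer cells of a type and less RNA per cell cannot be told apart.

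Each transcript gives 1 tag in this assay whatever its length, so CPM can be set side by side between genes apart from differences in how well each 3′ end is captured. On that scale the cytosolic synthetases were the more abundant compartment. Their mean levels over the 29 animals ran from 9.38 CPM (Wars, tryptophan) to 269 CPM (Eprs, the fused glutamate and proline enzyme), with a median over genes of 44.2 CPM. The mitochondrial genes ran from 1.61 CPM (Mars2) to 63.8 CPM (Iars2, isoleucine), with a median of 9.25 CPM. Eprs, Nars (asparagine, 229 CPM), Tars (threonine, 145 CPM), Aars (alanine, 107 CPM) and Sars (serine, 100.3 CPM) were the 5 highest members. Iars2 was the only mitochondrial gene among the 17 highest, and Wars was the only cytosolic gene below 17 CPM. The summed cytosolic level in a library was 4.91 to 9.11 times that of the mitochondrial members.

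At 6 weeks the called cytosolic genes were mostly higher in PiZ livers. Of 20 cytosolic members 6 rose against wild type (Hars, Nars, Sars, Gars, Aars and Eprs) and 1 fell (Tars), by edgeR's quasi-likelihood test at a Benjamini-Hochberg adjusted p (given below as adjusted p) below 0.05 over all genes. Of 14 mitochondrial members 0 rose and 2 fell (Nars2 and Vars2). Across all 10877 genes tested 25.8% were called in this comparison, 12.4% higher and 13.3% lower, against 35.0% of the cytosolic and 14.3% of the mitochondrial members tested. The estimate was above 0 for 16 of 20 cytosolic members, with a median log2 fold change of 0.35, and for 4 of 14 mitochondrial members, with a median of -0.22. The median over all genes was -0.03. The mitochondrial share called lower was near that of all genes, and the mitochondrial median ranged from -0.28 to -0.13 with an animal left out.

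**Figure D1:**
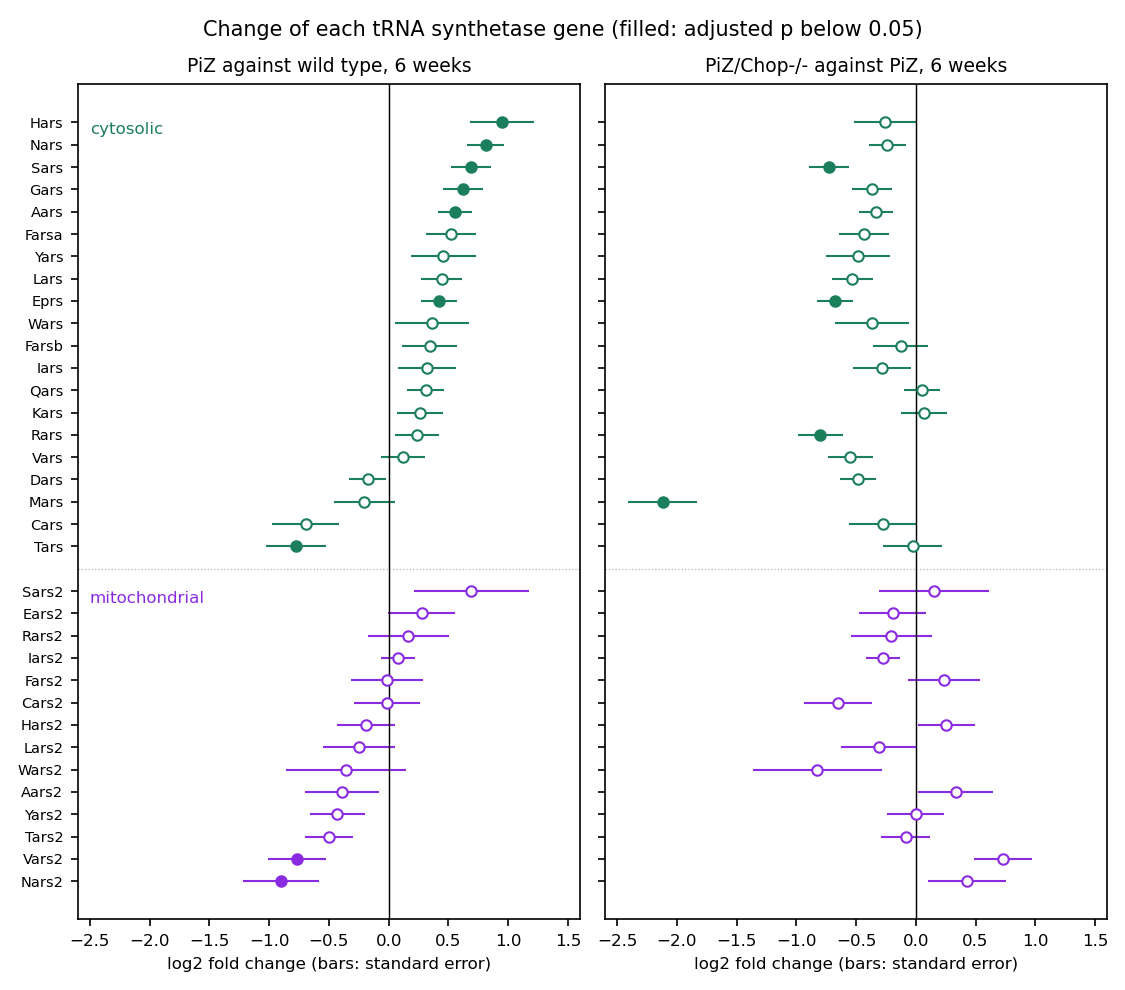
Log2 fold change (x axis, bars are the standard error) of each of the 34 tested synthetase genes for the PiZ to wild-type comparison (left) and the PiZ/Chop-/- to PiZ comparison (right) at 6 weeks, cytosolic genes above the dotted line and mitochondrial genes below it. Filled points passed an adjusted p below 0.05: 7 cytosolic and 2 mitochondrial genes on the left, 4 cytosolic genes on the right.

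Among the cytosolic members that rose, Nars (ENSMUSG00000024587), which charges asparagine, was the clearest by p. It measured 182, 144, 169, 175 and 183 CPM in the wild-type animals at 6 weeks and 314, 335, 299, 289.9 and 259 CPM in the PiZ animals. Every PiZ animal was above every wild-type animal, and the log2 fold change was 0.81 (SE 0.155, adjusted p = 0.000276). Aars (ENSMUSG00000031960; chr8:111033144-111057664), the alanine enzyme, behaved alike on a smaller scale. Its wild-type values were 78.5, 84.2, 86.8, 78.7 and 89.7 CPM, and its PiZ values 113, 139.7, 96.6, 141 and 123 CPM. The ranges did not overlap, and the log2 fold change was 0.55 (SE 0.141, adjusted p = 0.00414).

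Sars (ENSMUSG00000068739; chr3:108424865-108445209) charges serine and, through the same transfer RNA family, provides the seryl-tRNA from which selenocysteine is made. Its levels were 91.8, 112, 80.8, 73.4 and 88.6 CPM in wild type and 152, 159, 166, 133 and 110.4 CPM in PiZ. Only the lowest PiZ animal fell within the wild-type range, and the log2 fold change was 0.69 (SE 0.168, adjusted p = 0.00279). Gars (ENSMUSG00000029777; chr6:55038007-55079500), whose product serves cytosol and mitochondria, measured 41.6, 21.8, 44.1, 43.2 and 49.9 CPM in wild type and 77.5, 65.0, 61.9, 56.9 and 48.9 CPM in PiZ. Replicate 2 of wild type was the lowest of all animals, 1 PiZ animal lay within the wild-type range, and the log2 fold change was 0.62 (SE 0.167, adjusted p = 0.00636).

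Hars (ENSMUSG00000001380), the histidine enzyme, had the largest estimate and the widest spread. Its wild-type values were 22.4, 2.84, 18.3, 9.48 and 10.1 CPM, against 25.3, 20.1, 22.6, 28.6 and 26.9 CPM in PiZ. The PiZ animals lay close together while wild type covered 2.84 to 22.4 CPM, and the log2 fold change was 0.95 (SE 0.269, adjusted p = 0.00952). Eprs rose by the smallest amount among the called genes, with 271 ± 65.2 CPM in the 5 wild-type and 363 ± 28.6 CPM in the 5 PiZ animals (mean ± SD). Its log2 fold change was 0.42 (adjusted p = 0.0392), and removing an animal ended the call in 8 of 10 fits. With the level of muscle transcripts as a covariate, 3 cytosolic members were called and Gars, Hars, Eprs and Tars were not. Their log2 fold changes in that fit were 0.53, 0.96, 0.47 and -0.47, and the adjusted p-values 0.079, 0.053, 0.106 and 0.286. With wild-type replicates 1 and 2 both left out, 6 cytosolic members rose and 0 fell.

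**Figure D2:**
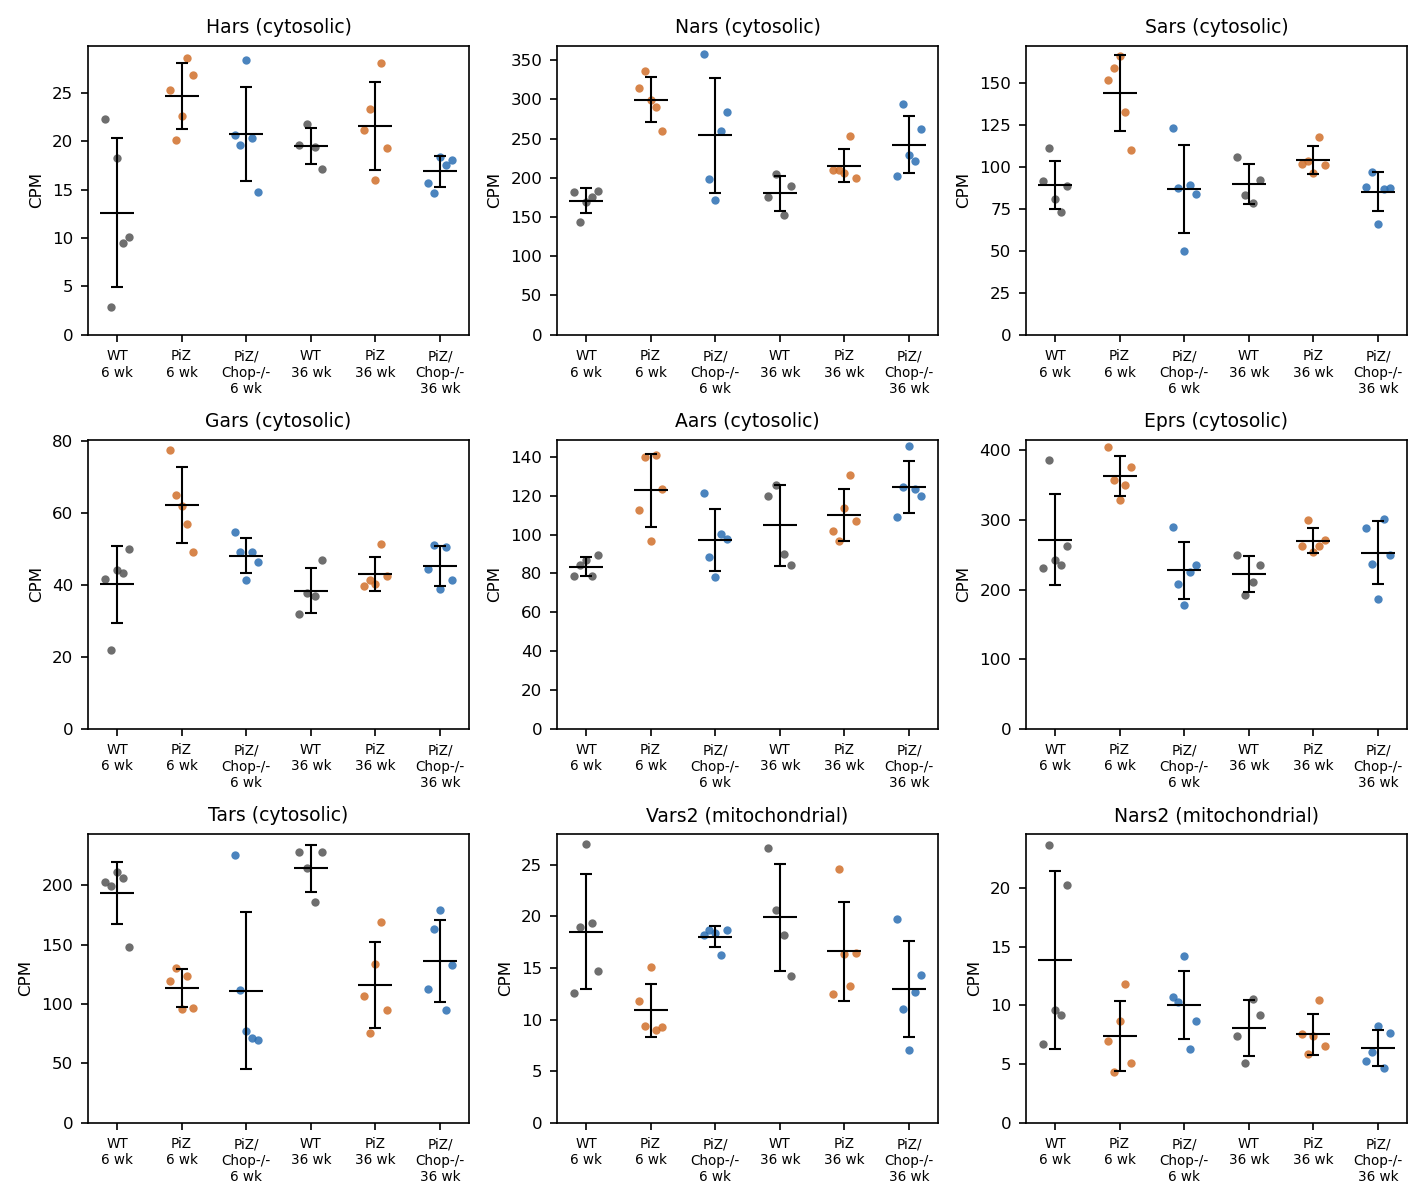
CPM (y axis from 0) of 9 synthetase genes in each animal of the 6 groups (x axis). Points are animals, the horizontal line is the group mean and the bars are 1 SD. For Nars and Aars all PiZ animals at 6 weeks lie above all wild-type animals of that age, and for Tars all lie below.

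Tars (ENSMUSG00000022241; chr15:11382301-11399665), the threonine enzyme, was the called cytosolic gene that fell. It measured 202, 199.6, 211, 206 and 148 CPM in wild type at 6 weeks and 119, 130.4, 95.4, 123 and 96.6 CPM in PiZ. All 5 PiZ animals were below all wild-type animals, and the log2 fold change was -0.78 (SE 0.248, adjusted p = 0.0204). At 36 weeks the wild-type values were 228, 214, 186 and 228 CPM and the PiZ values 106, 75.2, 134, 169 and 95.2 CPM. The ranges were again separate, with a log2 fold change of -0.89 that did not pass the threshold (adjusted p = 0.0631). Left out of the 6-week comparison in turn, PiZ replicate 5 ended the call (log2 fold change -0.72), and so did leaving out wild-type replicates 1 and 2 together (-0.74, adjusted p = 0.061).

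The other cytosolic members were not called at 6 weeks. Lars (leucine), Farsa (the alpha subunit for phenylalanine), Yars (tyrosine), Wars, Farsb (the beta subunit for phenylalanine), Iars, Qars (glutamine), Kars (lysine), Rars (arginine) and Vars (valine) had estimates between 0.12 and 0.52 on the log2 scale. Dars (aspartate) and Mars (methionine) stood at -0.18 and -0.20, and Cars (cysteine) at -0.70 with a standard error of 0.28. Iars and Yars, whose windows also hold a match to the letters searched, had estimates of 0.32 and 0.46 and adjusted p-values of 0.359 and 0.222. By structural class, of 10 class II enzymes 5 rose and 1 fell, while of 9 class I enzymes 0 were called, and Eprs joins both classes. By location, 6 of the 12 members outside the multi-synthetase complex were called against 1 of 8 inside it, Eprs. Neither difference between subsets was tested.

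The mitochondrial genes were lower counted and less precisely measured. Vars2 (ENSMUSG00000038838; chr17:35655634-35667592), the mitochondrial valine enzyme, measured 12.6, 18.9, 27.03, 19.3 and 14.7 CPM in wild type and 11.8, 9.34, 15.1, 8.95 and 9.28 CPM in PiZ at 6 weeks. Of the 5 PiZ animals 4 lay below every wild-type animal, and the log2 fold change was -0.77 (SE 0.243, adjusted p = 0.0193). Nars2 (ENSMUSG00000018995; chr7:96951505-97064758), the asparagine enzyme of mitochondria, measured 6.67, 23.7, 9.61, 9.13 and 20.2 CPM in wild type and 6.94, 4.31, 8.68, 11.8 and 5.12 CPM in PiZ. The ranges overlapped, wild-type replicates 2 and 5 were the highest, and the log2 fold change was -0.90 (SE 0.321, adjusted p = 0.0374). Removing an animal ended the call in 5 of 10 fits, namely without wild-type replicate 2 (-0.63) or 5 (-0.71), or PiZ replicate 1 (-0.88), 2 (-0.76) or 5 (-0.79). The call of Vars2 was lost without wild-type replicate 3 (-0.59) or PiZ replicate 4 (-0.71).

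Tars2 (ENSMUSG00000028107; chr3:95739976-95760206), the threonine enzyme of mitochondria, missed the threshold. It had wild-type values of 16.9, 15.1, 20.4, 14.7 and 11.9 CPM and PiZ values of 9.65, 12.9, 12.4, 12.5 and 8.64 CPM. The groups overlapped only through wild-type replicate 5, and the log2 fold change was -0.50 (SE 0.199, adjusted p = 0.0644). For threonine the cytosolic and the mitochondrial gene therefore both had negative estimates. Sars2 had the highest mitochondrial estimate, 0.69 with a standard error of 0.485, at a mean level of 5.33 CPM.

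For 14 amino acids a gene of each compartment could be set beside the other. In PiZ against wild type at 6 weeks the cytosolic estimate exceeded the mitochondrial estimate for 11 of the 14, with a median difference of 0.61 on the log2 scale. The widest gap was for asparagine, where Nars rose by 0.81 and Nars2 fell by 0.90. Histidine (0.95 and -0.19) and alanine (0.55 and -0.39) followed, and cysteine (-0.70 and -0.01) and threonine (-0.78 and -0.50) had the lower cytosolic estimate. For serine the estimates were both 0.69.

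**Figure D3:**
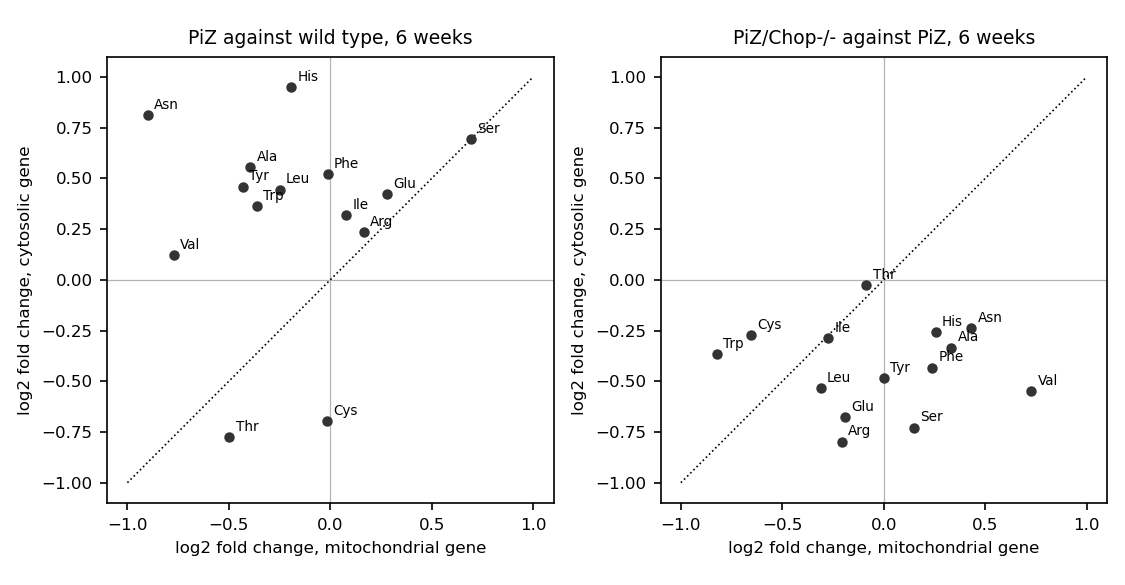
Log2 fold change of the mitochondrial gene (x axis) against that of the cytosolic gene (y axis) for the 14 amino acids with a tested gene in each compartment, for PiZ relative to wild type (left) and PiZ/Chop-/- relative to PiZ (right) at 6 weeks; the dotted line marks equal change and Phe uses Farsa. On the left 11 points lie above the line, on the right 3 do.

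Summed over the members, the cytosolic level was 1306 to 1502 CPM in the wild-type and 1598 to 1870 CPM in the PiZ animals at 6 weeks, without overlap. The mitochondrial sum was 212 to 268 CPM and 203 to 241 CPM, which overlapped. The ratio of the sums was 6.21, 7.07, 5.27, 5.79 and 5.53 in the wild-type animals and 7.24 to 9.11 in the PiZ animals. The highest wild-type ratio was that of replicate 2, the library with most reads outside genes. Macrophage markers also stood higher in PiZ at 6 weeks: 8 of 8 were called higher by edgeR, and their summed level was 122 to 345 CPM in wild type and 752 to 1184 CPM in PiZ. Both tested neutrophil markers were called higher, with sums of 1.89 to 5.62 CPM in wild type and 9.05 to 25.1 CPM in PiZ, and 1 of 2 tested lymphocyte markers was. Of 14 skeletal muscle markers 12 were called lower in PiZ, with sums of 29.1 to 5420 CPM in wild type and 7.04 to 184 CPM in PiZ. Of 8 hepatocyte markers 2 were called lower and 0 higher, with sums of 33150 to 86977 CPM in wild type and 40452 to 55289 CPM in PiZ. The part of these cells in the synthetase changes was not tested, apart from the fit with muscle transcripts.

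**Figure D4:**
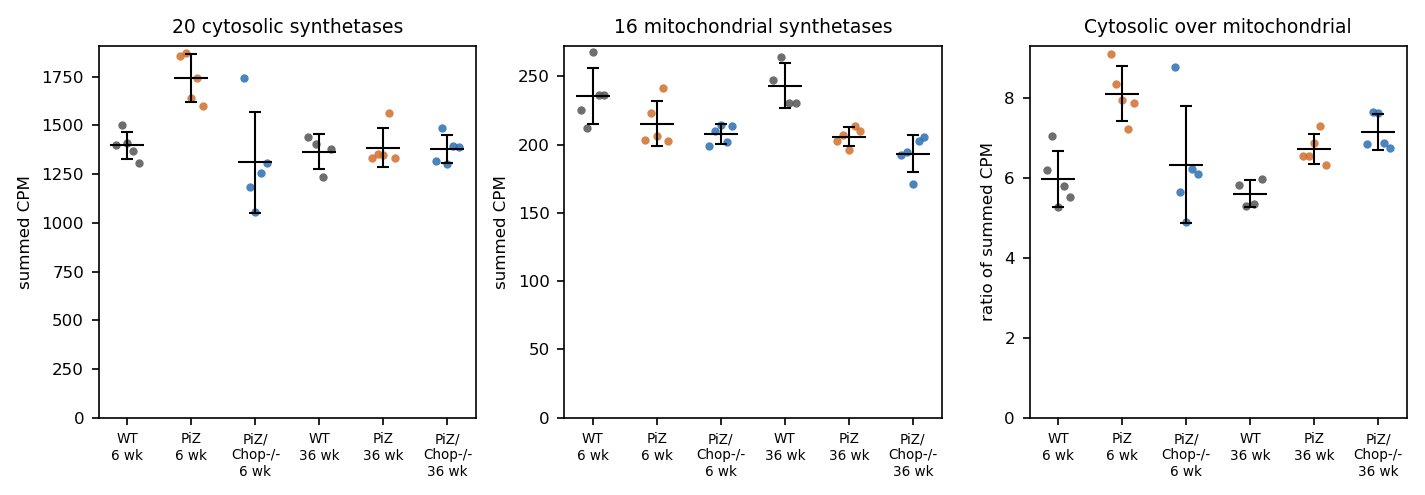
Summed CPM of the 20 cytosolic members (left), of the 16 mitochondrial members (middle) and the ratio of these sums (right) in each animal of the 6 groups; the line is the group mean and the bars are 1 SD. At 6 weeks the PiZ cytosolic sums lie above the wild-type sums, and PiZ/Chop-/- replicate 1 lies apart from the other 4 animals of its group.

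At 36 weeks 0 of 34 members were called between PiZ and wild type by edgeR, where 2.43% of all genes were called. At an unadjusted p below 0.05 there were 1 cytosolic and 2 mitochondrial members, and DESeq2 called 1 cytosolic and 0 mitochondrial members. The estimate was above 0 for 14 of 20 cytosolic members, with a median of 0.07, and for 2 of 14 mitochondrial members, with a median of -0.19. Nars measured 176, 204, 152 and 189 CPM in wild type and 209, 210.0, 206, 253 and 199 CPM in PiZ, a log2 fold change of 0.26. Aars averaged 105 ± 20.8 CPM in the 4 wild-type and 110.0 ± 13.2 CPM in the 5 PiZ animals, and Hars 19.5 ± 1.87 and 21.6 ± 4.55 CPM (each ± SD). The cytosolic sums, 1235 to 1441 CPM in wild type and 1332 to 1564 CPM in PiZ, overlapped at this age. The mitochondrial sums did not: 231 to 265 CPM in wild type against 196 to 214 CPM in PiZ, with Lars2 (leucine) at -0.89 and Yars2 (tyrosine) at -0.55 the lowest estimates. In the same comparison 3 of 7 stellate cell markers, 1 of 8 macrophage markers (all above 0, median 0.71) and 1 of 2 neutrophil markers were called higher, and 1 of 3 erythroid markers lower. Their part in these sums was not tested.

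Whether the PiZ change depended on age was tested as a difference between the ages. Of 34 members 0 were called by edgeR, where 2.41% of all genes were called, 3 cytosolic and 0 mitochondrial members had an unadjusted p below 0.05, and DESeq2 called 0. The 3 smallest p-values belonged to Nars, Aars and Hars. Their PiZ changes were smaller at 36 weeks by 0.55, 0.48 and 0.80 on the log2 scale, and the adjusted p-values were 0.179, 0.200 and 0.269. A difference between the ages therefore passed the test for 0 members. The median difference over cytosolic members was -0.34 and that over mitochondrial members -0.12, which became 0.03 without wild-type replicate 2 at 36 weeks. Mean macrophage marker sums in wild type and PiZ were 262 and 968 CPM at 6 weeks, and 337 and 538 CPM at 36 weeks. Their part in these differences was not tested. Between 6 and 36 weeks within wild type, where 3.69% of genes were called, Dars fell by 0.56 (adjusted p = 0.0486). The fit with the muscle covariate did not call it, nor did 7 of 9 fits that left out an animal. Muscle marker sums were 29.1 to 5420 CPM in wild type at 6 weeks and 12.8 to 112 CPM at 36 weeks. Stellate cell marker sums were 376 to 570 CPM and 342 to 375 CPM, and their part was not tested. Within PiZ, where 5.33% were called, Lars fell by 0.60 (adjusted p = 0.0328).

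Lars (ENSMUSG00000024493), the leucine enzyme, measured 64.9, 56.0, 49.4, 69.4 and 59.5 CPM in PiZ at 6 weeks and 44.5, 42.5, 36.8, 38.5 and 35.2 CPM at 36 weeks. All older animals were below all younger animals, yet 7 of 10 fits that left out an animal did not call it. Of the 20 cytosolic estimates 18 were below 0 with age in PiZ, and the median was -0.30. The 8 macrophage markers were also all below 0 with age in PiZ, with a median of -0.78, 1 called lower and 6 at an unadjusted p below 0.05, and 2 of 7 stellate cell markers were called lower. Their part in the synthetase values was not tested.

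Removal of Chop from PiZ mice was examined next. At 6 weeks 4 cytosolic members fell in PiZ/Chop-/- against PiZ (Mars, Rars, Sars and Eprs) and 0 rose, and of 14 mitochondrial members 0 were called. Across all genes 6.78% were called, 3.9% higher and 2.89% lower. Only Kars and Qars, at 0.07 and 0.05, had estimates above 0 among the 20 cytosolic members, and the median was -0.37. The mitochondrial median was -0.04 with 7 of 14 above 0, 2 had an unadjusted p below 0.05, and DESeq2 called 0. Of the cell-type markers, 0 of 8 hepatocyte markers were called, with 7 above 0 and a median of 0.41, and 0 of 8 macrophage markers, all below 0 with a median of -0.44. At an unadjusted p below 0.05 there were 4 hepatocyte markers and 1 macrophage marker. Of 2 tested lymphocyte markers 1 was called lower, and the lymphocyte sums, 67.2 to 91.3 CPM in PiZ and 14.6 to 29.5 CPM in PiZ/Chop-/-, did not overlap. Of 3 erythroid markers 1 was called higher. The part of these cells in the synthetase values was not tested. Clock genes differed between these groups as well. The log2 of Dbp over Arntl was 4.65 ± 3.82 in PiZ/Chop-/- and 0.14 ± 1.82 in PiZ (SD, n = 5 each). Only PiZ/Chop-/- replicate 1 lay outside 5.70 to 7.38. The part of this ratio was not tested, apart from the fit with it as a covariate given below. The PiZ/Chop-/- against PiZ and the PiZ against wild type comparisons share the PiZ animals, so a member that was high in those 5 animals moves in opposite directions in both.

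Eprs (ENSMUSG00000026615; chr1:185363044-185428360) measured 404, 358, 328, 350.1 and 376 CPM in PiZ and 290.1, 208, 177, 225 and 236 CPM in PiZ/Chop-/- at 6 weeks. The ranges were separate, and the log2 fold change was -0.68 (SE 0.152, adjusted p = 0.00517). Sars fell from the PiZ values above to 124, 87.3, 50.2, 89.4 and 84.0 CPM, a log2 fold change equal to -0.73 (SE 0.168, adjusted p = 0.00627). The highest of these animals was replicate 1, the only one to overlap with PiZ. Rars (ENSMUSG00000018848; chr11:35808381-35834506), the arginine enzyme, measured 61.8, 63.6, 46.0, 71.2 and 55.7 CPM in PiZ and 43.0, 30.3, 31.0, 28.2 and 39.3 CPM in PiZ/Chop-/-. These ranges were separate too, and the log2 fold change was -0.80 (SE 0.188, adjusted p = 0.0076). With the ratio of Dbp to Arntl as a covariate Sars (-0.55, adjusted p = 0.110) and Rars (-0.63, adjusted p = 0.121) were no longer called.

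Of the 6 members that rose in PiZ, 4 were not called without Chop. Nars was 358, 198, 171, 259.7 and 283 CPM in PiZ/Chop-/- at 6 weeks, a log2 difference of -0.24 from PiZ (adjusted p = 0.395) that was -0.39 without replicate 1, the highest animal, and ranged up to -0.12 with another left out. Against wild type it was called higher, by 0.57 (adjusted p = 0.0103). Hars (-0.26), Aars (-0.33) and Gars (-0.37) were not called against PiZ either, with adjusted p-values of 0.619, 0.157 and 0.194. The Hars estimate ranged from -0.39 to -0.15 with an animal left out. Tars was 226 CPM in replicate 1 and 112, 77.0, 71.6 and 69.9 CPM in the other 4 animals, so that its difference from PiZ, -0.03, averaged over very unlike animals. Vars2 was 18.2, 18.7, 18.4, 16.3 and 18.7 CPM in PiZ/Chop-/-, above all PiZ animals, with a log2 fold change of 0.73 that missed the threshold (adjusted p = 0.0674).

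Replicate 1 of PiZ/Chop-/- at 6 weeks stood apart from its group. Its cytosolic sum was 1745 CPM against 1055 to 1307 CPM in the other 4 animals, and the ratio to the mitochondrial sum was 8.78 against 4.91 to 6.24. Atf4 was 503 CPM in it and 113 to 173 CPM in the others. Without this animal 6 cytosolic members were called lower than in PiZ, in place of 4. The part of its clock gene ratio in these values was not tested.

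Compared with wild type at 6 weeks, where 19.5% of all genes were called, PiZ/Chop-/- mice had 1 cytosolic member higher (Nars) and 5 lower (Mars, Cars, Dars, Tars and Rars). The log2 fold changes of the lower ones were -2.32, -0.97, -0.66, -0.80 and -0.56. Among mitochondrial members Tars2 was called lower (-0.58, adjusted p = 0.0396). Dars, the aspartate enzyme, was 45.1 to 72.4 CPM in wild type and 26.03 to 41.0 CPM in PiZ/Chop-/-, without overlap. Without wild-type replicate 2 neither Cars (-0.65) nor Rars (-0.34) was called, without PiZ/Chop-/- replicate 3 Cars was not (-0.85), and 5 of 10 such fits lost Rars and 6 of 10 lost Tars2. Tars was lost without PiZ/Chop-/- replicate 3 (-0.70), 4 (-0.68) or 5 (-0.67) and stood at -1.23 without replicate 1, whose 226 CPM lay above every wild-type animal. The 6 cytosolic calls became 3 with the muscle or the clock covariate (Mars, Dars and Nars in each) and 1, Mars, with only the groups compared. In the same comparison 8 of 8 macrophage, 2 of 2 neutrophil, 2 of 3 erythroid and 1 of 6 endothelial markers were called higher. Called lower were 11 of 14 muscle, 1 of 2 lymphocyte, 1 of 7 stellate cell and 1 of 4 cholangiocyte markers, and of 8 hepatocyte markers 1 was higher and 1 lower. The part of these cells in the synthetase calls was not tested, apart from the fit with muscle transcripts. At 36 weeks, where 4.42% of all genes were called, Mars (-2.26) and Yars2 (-0.89, adjusted p = 0.0344) were lower than in wild type. For Yars2, 7 of 9 fits that left out an animal did not call it. The mitochondrial estimates were below 0 for 12 of 14 members, with a median of -0.39 against 0.01 over all genes, and their sums, 171 to 205 CPM in PiZ/Chop-/- and 231 to 265 CPM in wild type, did not overlap. The cytosolic median was 0.05, and it took both signs with an animal left out (-0.0064 to 0.090). In this comparison 3 of 7 stellate cell, 2 of 8 macrophage, 2 of 2 neutrophil and 1 of 2 lymphocyte markers were called higher and 1 of 3 erythroid markers lower, and their part in these values was not tested. The wild-type animals are those of the PiZ comparison at this age.

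At 36 weeks PiZ/Chop-/- and PiZ differed in few genes, 0.0368% of those tested, and Mars was the only synthetase among them. The cytosolic median was 0.04 and the mitochondrial median -0.05, and the latter ranged from -0.15 to -0.03 with an animal left out. Cytosolic sums were 1305 to 1489 CPM in PiZ/Chop-/- and 1332 to 1564 CPM in PiZ. With age in PiZ/Chop-/- mice, where 1.63% of genes were called, 0 of 34 members were called by edgeR or DESeq2 and 2 had an unadjusted p below 0.05. The difference between the ages in the effect of Chop called 0 members by edgeR and by DESeq2, against 1.43% of all genes, and 4 cytosolic and 2 mitochondrial members had an unadjusted p below 0.05. The smallest p-values were those of Vars2 (-1.08), Rars (0.84) and Lars (0.69), with adjusted p-values of 0.112, 0.113 and 0.169. The median of this difference was 0.42 over cytosolic and -0.02 over mitochondrial members. Mean macrophage marker sums in PiZ and PiZ/Chop-/- were 968 and 676 CPM at 6 weeks, and 538 and 679 CPM at 36 weeks. Mean hepatocyte marker sums were 46804 and 64976 CPM at 6 weeks, and 55857 and 48048 CPM at 36 weeks. The part of these cells was not tested.

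Mars (ENSMUSG00000040354; chr10:127296221-127311786, minus strand), the methionine enzyme, had the largest change of the family. Its end shares 68 exonic bases, from 127296221 to 127296288, with Ddit3 on the opposite strand, and Ddit3 is the gene deleted in the PiZ/Chop-/- mice. At 6 weeks it measured 32.6, 49.7, 43.5, 39.7 and 46.1 CPM in wild type, 43.7, 46.0, 41.9, 27.6 and 24.6 CPM in PiZ, and 12.4, 4.45, 5.44, 5.42 and 14.2 CPM in PiZ/Chop-/-. At 36 weeks the values were 54.2, 65.7, 45.3 and 52.7 CPM in wild type, 44.5, 42.9, 42.2, 55.9 and 52.9 CPM in PiZ, and 4.03, 11.4, 9.79, 16.9 and 13.9 CPM in PiZ/Chop-/-. Every PiZ/Chop-/- animal was below every other animal at both ages. The log2 fold change against PiZ was -2.12 at 6 weeks (SE 0.286, adjusted p = 1.45e-05) and -2.07 at 36 weeks (SE 0.276, adjusted p = 0.000111).

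In PiZ against wild type, where the log2 fold change of Ddit3 at 6 weeks was 2.96, the estimate for Mars was -0.20 (adjusted p = 0.608), with a range of -0.30 to -0.09 when an animal was left out. The reads of this assay come from the 3′ end, the part of Mars that overlaps Ddit3. A loss of the bases that carry the tags and a lower level of Mars messenger RNA cannot be told apart in these data. Without Mars the cytosolic members called in PiZ/Chop-/- against PiZ were 3 of 19 at 6 weeks and 0 of 19 at 36 weeks.

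**Figure D5:**
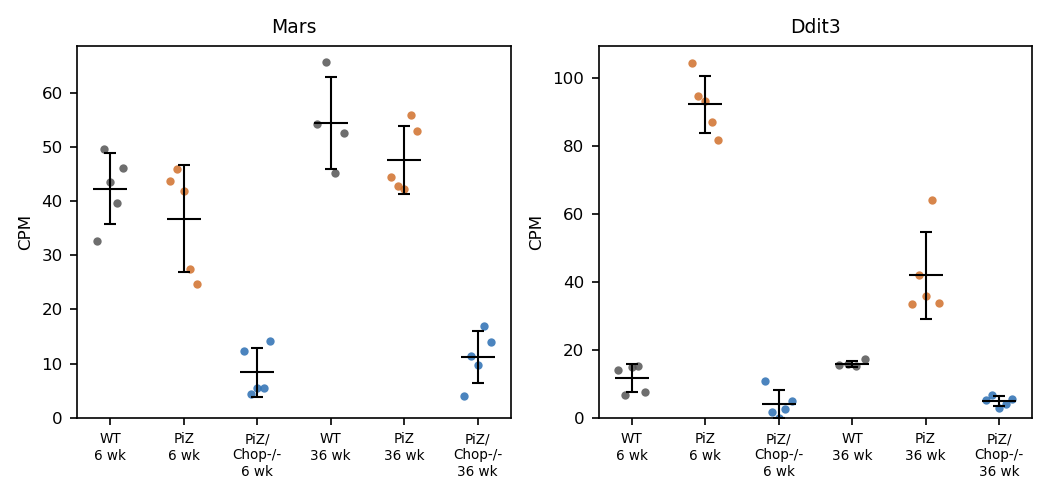
CPM (y axis from 0) of Mars and of Ddit3, the gene on the opposite strand that shares 68 exonic bases with it, in each animal of the 6 groups; the line is the group mean and the bars are 1 SD. Mars lies at 4.03 to 16.9 CPM in the 10 PiZ/Chop-/- animals and at 24.6 to 65.7 CPM in the 19 others.

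Other members share exonic bases with a neighbour: Hars with Hars2 on the opposite strand, Aars with Exosc6 on the same strand, and Iars2, Cars2, Fars2, Ears2, Yars, Farsb and Vars2 with genes on the opposite strand. Whether counting used strand was not given in the sources used here, and for Aars and Exosc6 strand would not separate the reads. Each count table listed some reads as ambiguous, 0.314% to 0.712% of the unique alignments, apart from the gene counts. Reads in shared bases may thus have been set aside, or credited to the member or its partner, and these cannot be told apart here. Of the genes called between PiZ and wild type at 6 weeks the overlaps touch Hars, Aars and Vars2. The Hars overlap is 195 bases at the start of both genes. The Aars overlap with Exosc6 covers 1326 bases up to the 3′ end of Aars, and that of Vars2 with the antisense gene Gm20483 covers 465 bases from its 3′ end, where the tags of this assay fall. Exosc6 and Gm20483 were listed at 0 counts in every library, which does not show whether they were expressed.

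The regulators and companions of the synthetases were followed through lists, which were chosen with earlier results of these data known. Their counts and medians are therefore descriptions, and differences between a list and the synthetases were not tested. Atf4 itself measured 201, 252, 222, 219 and 219.5 CPM in wild type and 450.1, 431, 405, 316 and 292 CPM in PiZ at 6 weeks, a log2 fold change of 0.77 (adjusted p = 0.0317) with separate ranges. Of 27 tested genes in a list of Atf4 itself and its targets in the amino acid response, 19 rose, Atf4 among them, and 0 fell in PiZ at 6 weeks, with a median log2 fold change of 1.30, against 0.35 for the cytosolic synthetases. Ddit4 (an inhibitor of mTORC1 signalling) changed by 4.91, Asns (asparagine synthetase, which makes the amino acid that Nars uses) by 2.80, Slc3a2 (the heavy chain of amino acid transporters) by 2.37 and Trib3 (a pseudokinase induced by ATF4 and Chop) by 3.02. At 36 weeks 3 of 27 were called higher, among them Asns (1.86) and Trib3 (2.30).

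Without Chop at 6 weeks 6 of the 27 fell against PiZ and 1 rose, with a median of -0.48. Ddit4 (-3.06) and Trib3 (-2.74) fell, while Asns stood at 0.80 and was not called (adjusted p = 0.137). Asns was 4.51 ± 3.32 CPM in wild type, 32.6 ± 4.41 CPM in PiZ and 56.7 ± 7.41 CPM in PiZ/Chop-/- at 6 weeks (SD, n = 5 each). Among the genes called higher in PiZ at 6 weeks, Sars, Eprs, Ddit4 and Trib3 were thus called lower in PiZ/Chop-/- than in PiZ. The call of Sars was lost with the clock covariate. Asns was not called, nor were Nars, Hars, Aars and Gars, and the estimates of Nars (-0.24) and Asns (0.80) had opposite signs.

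The genes of proteins that work with the cytosolic synthetases were next. The 10 tested partners were scaffolds of the multi-synthetase complex (Aimp1, Aimp2, Eef1e1), deacylases of wrongly charged transfer RNA (Dtd1, Dtd2), enzymes of selenocysteine synthesis (Pstk, Sepsecs), and the eIF2 kinases Eif2ak3 and Eif2ak4 with the activator Gcn1l1. Of these 1 rose in PiZ at 6 weeks, Eef1e1 (a scaffold of the complex, 1.18), and 1 fell, Gcn1l1 (a ribosome-bound activator of the kinase GCN2, -0.82). Gcn1l1 spread widely in wild type, with 34.9 ± 24.97 CPM there and 19.5 ± 2.67 CPM in PiZ (5 animals each, ± SD). Of 9 factors of elongation and termination 1 rose, Eef1b2 (an exchange factor for eEF1A, 0.66). The called shares, 20% of partners and 11.1% of these factors, were below the share of all genes in that comparison. In PiZ/Chop-/- against wild type at 6 weeks 4 of the 9 factors were called higher: Eef1a1 (0.51), Eef1b2 (0.62), Eef2 (0.86) and Eif5a (0.65). In PiZ/Chop-/- against PiZ at 6 weeks edgeR called none of the partners or factors, and 2 partners and 0 factors had an unadjusted p below 0.05.

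On the mitochondrial side 25 translation factors and transfer RNA enzymes were tested. In PiZ at 6 weeks 0 rose and 2 fell: Hsd17b10 (a subunit of mitochondrial RNase P and a fatty acid and steroid dehydrogenase), by 0.63, and Mtif2 (a mitochondrial initiation factor), by 0.61. The called share was 8.0%, below that of all genes, and the median was -0.03, equal to that of all genes. Hsd17b10 was 156 ± 36.7 CPM in wild type, 101 ± 10.3 CPM in PiZ and 163 ± 14.5 CPM in PiZ/Chop-/- (SD, n = 5 each), and it rose by 0.70 against PiZ (adjusted p = 0.00308). Vars2 was likewise lowest in PiZ among these 3 groups, at 18.5 ± 5.56, 10.9 ± 2.61 and 18.04 ± 1.02 CPM (SD, n = 5 each).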

How the data were processed

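Whole-number read counts per Ensembl gene, made by the authors and deposited as 1 table per sample, were used as given; reads had been aligned to mm10, per the submitters' processing notes. The aligner, counter, annotation release and strand setting were not given in the sources used here. Each table also held 5 summary lines of unassigned reads (46.1% to 73.8% of listed reads), which were left out. Names and positions are from GENCODE M21 (GRCm38), matched for 31011 identifiers. The start region of 1 member is not reported here.

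The test was edgeR 4.0.16 under R 4.3.3: filterByExpr (minimum count 10, minimum total 15), TMM scaling, and a quasi-likelihood fit with 1 coefficient per group over all 29 samples. The 11 contrasts were tested two-sided, with Benjamini-Hochberg adjustment over 10877 genes and a threshold of 0.05. CPM are TMM-scaled; errors are SD over animals and SE of the contrast. Replicates are separate mice, per the labels. The floor of 3 counts covers counting error only. The scripts were tested on simulated data. The members and lists, and the symbols of 2 listed genes, were chosen with earlier results of these data known. Every-animal values were given for the called cytosolic genes with the largest changes, the mitochondrial genes with the smallest p, the smallest p in each difference between ages, and Mars. Aars and Rars met this rule only through a difference between ages. Showing both in other comparisons, and naming Eprs and other members beyond the rule, was chosen after their values were seen.

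Alternatives were DESeq2 1.42.0, its size factors, library size alone, 2 filters, robust moderation, a replicate block, muscle and clock covariates, only the groups compared, and leaving out each animal or, added after seeing the data, wild-type replicates 1 and 2 at 6 weeks together.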

Additional observations from a re-analysis of the deposited data

Results flagged for a closer look

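Of 90 groups of 4 or 5 animals tested for a value far from the rest, 7 held one, and chance alone gives about 1 in 20. Tars was low in wild-type replicate 5 at 6 weeks (148 CPM, the others 199.6 to 211 CPM). It was high in PiZ/Chop-/- replicate 1 at 6 weeks (226 CPM, the others 69.9 to 112 CPM). That animal had the highest Atf4 and the lowest clock gene ratio of its group. PiZ replicate 4 at 36 weeks was high for Gars (51.2 CPM, the others 39.6 to 42.3 CPM), for Nars (253 CPM, the others 199 to 210.0 CPM) and for the cytosolic sum (1564 CPM, the others 1332 to 1355 CPM), and its Atf4 and Ddit3, at 382 and 64.1 CPM, were also the highest of its group. Vars2 was low in PiZ/Chop-/- replicate 4 at 6 weeks (16.3 CPM, the others 18.2 to 18.7 CPM), in the group where it varied least. Tars2 was low in PiZ replicate 2 at 36 weeks (7.01 CPM, the others 10.2 to 11.4 CPM).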

How the results depend on the processing

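Counts of called members depended on the setting more often than single changes did. In PiZ against wild type at 6 weeks the 7 cytosolic calls became 3 with the muscle covariate and 4 with only the groups compared. The 2 mitochondrial calls became 0 with library size alone or only the groups compared, and 1 without the low-count filter, with the replicate block, with the muscle covariate or without wild-type replicates 1 and 2. At 36 weeks DESeq2 and the fit of only the groups compared each called 1 cytosolic member in place of 0. In PiZ/Chop-/- against PiZ at 6 weeks the 4 cytosolic calls became 8 with library size alone and 2 with the clock covariate, and the 0 mitochondrial calls became 1 with the muscle covariate and 1 with only the groups compared. Against wild type at 6 weeks the 6 cytosolic calls became 3 with the muscle covariate, 3 with the clock covariate and 1 with only the groups compared. The single mitochondrial call became 0 under DESeq2, without the filter, with the replicate block, with either covariate, with only the groups compared and without wild-type replicates 1 and 2. At 36 weeks the cytosolic call became 2 with library size alone and 2 with the clock covariate, and the mitochondrial call became 0 with library size alone, without the filter, with the clock covariate and with only the groups compared.

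For age in wild type the 1 cytosolic call became 0 without the filter, with the block, with robust moderation, with the muscle covariate, with only the groups compared and without wild-type replicates 1 and 2. For age in PiZ the 1 cytosolic call became 3 under DESeq2, 5 with library size alone, 0 without the filter, 2 with a mean CPM of at least 5, 0 with the clock covariate and 5 with only the groups compared. For age in PiZ/Chop-/- 0 became 1 with library size alone, and for the difference between ages in the effect of Chop 0 became 4 with library size alone and 1 with only the groups compared. Tars in PiZ/Chop-/- against PiZ at 6 weeks, -0.03, changed sign with the clock covariate (0.47) and in 5 fits with an animal left out (from 0.0053 to 0.10, with -0.46 to 0.10 over all such fits), and Tars2 with the clock covariate (0.0088). The cause of these changes was not tested.

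With each animal left out in turn, cytosolic calls ranged from 6 to 10 and mitochondrial calls from 1 to 2 in PiZ against wild type at 6 weeks, and cytosolic calls from 0 to 1 at 36 weeks. In PiZ/Chop-/- against PiZ they ranged from 4 to 6 and from 0 to 1 at 6 weeks. Against wild type they ranged from 3 to 8 and from 0 to 1 at 6 weeks, and mitochondrial calls from 0 to 1 at 36 weeks. Cytosolic calls ranged from 0 to 3 for age in wild type and in PiZ, and from 0 to 1 for the difference between ages in the effect of Chop. The median changes moved too. In PiZ against wild type the cytosolic median ranged from 0.29 to 0.43 at 6 weeks and from 0.04 to 0.13 at 36 weeks. In PiZ/Chop-/- against PiZ it ranged from -0.44 to -0.34 at 6 weeks and took both signs at 36 weeks (-0.02 to 0.13), as did the mitochondrial median at 6 weeks (-0.08 to 0.03). The mitochondrial medians of both differences between ages also took both signs (-0.17 to 0.03 for PiZ, -0.11 to 0.10 for Chop), while the cytosolic ones ranged from -0.43 to -0.29 and from 0.29 to 0.56.

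The replicate numbers were not stated to pair the animals. Deviations of same-numbered animals had a median correlation of 0.0186 over 70 pairs (from -0.20 to 0.17). The median was -0.0044 over 280 others (from -0.23 to 0.34). A median over all groups cannot show whether animals of some groups were paired. Library size alone moved the median of all genes to 0.13 in PiZ against wild type and to -0.19 in PiZ/Chop-/- against PiZ at 6 weeks, so its counts are relative to that shift. Nars, Sars and Aars in PiZ at 6 weeks and Mars in all 4 comparisons with PiZ/Chop-/- were called under every alternative run. Mitochondrial members had 437 to 892 reads in a library against 2521 to 6151 for the cytosolic members; the effect of depth on the calls was not tested.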
